A study of Rattus norvegicus with 8 samples.

Results

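Genes of glycolysis and of the response to low oxygen were examined in the oesophagus of rats treated with a carcinogen. The set was chosen by name, with earlier results of these data known. It holds 10 of the 22093 genes measured on the arrays: Slc2a1, Hk2, Aldoa, Gapdh, Pgk1, Eno1, Pkm, Ldha, Hif1a and Vegfa. Each had a single probe set annotated to it alone, and all 10 were measured. Every animal, on either diet, had been given the oesophageal carcinogen NMBA (N-nitrosomethylbenzylamine) subcutaneously. Doses were 0.35 mg/kg, with 3 injections weekly over 5 weeks, and tissue was taken at week 25. Rats on a riboflavin-deficient diet (R0N+) and rats on a riboflavin-normal diet (RcN+) each gave 2 animals. Each animal gave 1 array of epithelial neoplasia and 1 of adjacent normal oesophagus, so the 8 arrays form 4 pairs, 1 per animal. They fall into 4 groups of 2 arrays: R0N+ neoplasia, R0N+ adjacent normal, RcN+ neoplasia and RcN+ adjacent normal. The RNA came from fixed, paraffin-embedded tissue. No arm without NMBA was analysed here, and the labels used here give no strain or age.

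Glycolysis splits glucose into pyruvate. Slc2a1 encodes the glucose transporter GLUT1, hexokinase 2 (Hk2) traps glucose in the cell by phosphorylation, and aldolase A (Aldoa), glyceraldehyde-3-phosphate dehydrogenase (Gapdh), phosphoglycerate kinase (Pgk1), enolase (Eno1) and pyruvate kinase (Pkm) carry out later steps. Lactate dehydrogenase A (Ldha) turns pyruvate into lactate. Hif1a encodes the oxygen-regulated subunit of hypoxia-inducible factor, which is controlled largely through protein stability and activates many glycolytic genes and Vegfa, an angiogenic growth factor. Squamous carcinomas often take up much glucose, and striated muscle, which forms the muscle coat of the rat oesophagus, is also rich in glycolytic enzymes.

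Hypoxia-inducible factor binds a core motif of ACGTG or GCGTG. Promoter windows (250 bases before to 50 after an annotated start, RefSeq, build GRCr8) were found for 9 of the 10 genes, all except Pgk1. Windows of 3 genes are shown, for Slc2a1, whose level set RcN+ neoplasia apart, for Ldha, which held more core motifs than the other windows and for Pkm, whose window held none. The windows of Hk2 and Vegfa held none either. Capitals mark the core motif on either strand (CACGT and CACGC are its complements). In Ldha one of them overlaps its own complement in CACGTG, which is also the letters of an E-box.
Slc2a1, chr5:138002272-138002571, plus strand: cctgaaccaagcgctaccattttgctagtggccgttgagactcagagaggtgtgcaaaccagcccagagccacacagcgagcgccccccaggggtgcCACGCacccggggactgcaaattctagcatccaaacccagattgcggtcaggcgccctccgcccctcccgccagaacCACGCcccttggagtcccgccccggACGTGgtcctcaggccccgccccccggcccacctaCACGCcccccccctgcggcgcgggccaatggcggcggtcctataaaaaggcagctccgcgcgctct
Ldha, chr1:106507842-106508141, plus strand: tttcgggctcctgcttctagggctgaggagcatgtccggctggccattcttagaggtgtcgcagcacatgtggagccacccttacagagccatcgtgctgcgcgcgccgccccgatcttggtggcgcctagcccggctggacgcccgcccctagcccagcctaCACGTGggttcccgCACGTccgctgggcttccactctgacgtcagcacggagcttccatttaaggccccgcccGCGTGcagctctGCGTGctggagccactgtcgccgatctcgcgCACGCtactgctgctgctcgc
Pkm, chr8:68953385-68953684, plus strand: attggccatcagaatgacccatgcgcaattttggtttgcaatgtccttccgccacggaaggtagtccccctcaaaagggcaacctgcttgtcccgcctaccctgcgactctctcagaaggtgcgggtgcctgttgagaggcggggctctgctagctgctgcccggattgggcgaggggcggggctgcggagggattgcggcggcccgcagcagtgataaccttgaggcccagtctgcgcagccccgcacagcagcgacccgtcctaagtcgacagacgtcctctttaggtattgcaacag
Slc2a1 held 4 core motifs, Ldha 6, and Pkm 0. Of the 13 windows of the 9 genes (some have several annotated starts), 7 held a core motif, or 53.8%, and of all 33469 rat promoter windows 41.6% did. These are matches of letters, not measured binding.

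The values are log2 expression summaries, to be compared between arrays for 1 gene and not between genes. That comparison is limited, since the arrays differed in spread. The SD over genes ran from 1.33 to 1.75, and the median of the positive control probe sets from 6.06 to 8.34. Slc2a1 was at 5.27 and 5.48 in R0N+ neoplasia (replicates 1 and 2) and at 5.26 and 5.34 in R0N+ adjacent normal tissue. It was at 6.59 and 6.01 in RcN+ neoplasia and at 5.43 and 5.36 in RcN+ adjacent normal tissue. The RcN+ neoplasia arrays stood above all 6 others, whose values lay within 5.26 to 5.48. Those 6 values were near the median of the negative control probe sets, which ran from 5.10 to 5.43 over the 8 arrays. No linear fold change is therefore given for this gene, and its log2 differences below involve values near background. Of the 10 genes Gapdh alone exceeded the 95th percentile of the negative controls, on all 8 arrays, and the other 9 did so on 0. That percentile was high, from 10.64 to 12.11 by array, against a median of 5.11 over all gene values. Of 22 cytosolic ribosomal protein genes, 3 exceeded it on both arrays in R0N+ neoplasia and 3 in R0N+ adjacent normal tissue. In RcN+ neoplasia 5 did so, and in RcN+ adjacent normal tissue 3. The share of all genes above it was not counted.

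Hif1a was at 6.95 and 6.68 in R0N+ neoplasia and at 6.88 and 6.64 in R0N+ adjacent normal tissue. It was at 8.06 and 7.62 in RcN+ neoplasia and at 6.41 and 7.65 in RcN+ adjacent normal tissue. Both RcN+ neoplasia arrays were thus high, but the second RcN+ adjacent normal array lay between them.

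Among the enzymes of the upper pathway, Hk2 was at 5.78 and 5.57 in R0N+ neoplasia, 6.46 and 5.70 in R0N+ adjacent normal, 6.56 and 5.79 in RcN+ neoplasia and 6.13 and 6.70 in RcN+ adjacent normal tissue. Aldoa was at 7.02 and 7.27 in R0N+ neoplasia, 7.96 and 7.18 in R0N+ adjacent normal, 7.58 and 7.63 in RcN+ neoplasia and 7.26 and 7.999 in RcN+ adjacent normal tissue. For both genes, R0N+ adjacent normal replicate 1 and RcN+ adjacent normal replicate 2 were higher than the other adjacent normal array of their diet.

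Gapdh, whose enzyme reduces NAD, was at 13.71 and 13.56 in R0N+ neoplasia, 13.87 and 13.70 in R0N+ adjacent normal, 14.15 and 13.87 in RcN+ neoplasia and 13.87 and 14.13 in RcN+ adjacent normal tissue. Pgk1, the first ATP-making step, was at 6.02 and 5.85 in R0N+ neoplasia, 6.72 and 6.04 in R0N+ adjacent normal, 6.99 and 6.44 in RcN+ neoplasia and 6.04 and 7.85 in RcN+ adjacent normal tissue. The widest spread of Pgk1 was between the 2 RcN+ adjacent normal arrays.

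Eno1 was at 6.33 and 6.37 in R0N+ neoplasia, 6.76 and 6.35 in R0N+ adjacent normal, 7.42 and 6.77 in RcN+ neoplasia and 6.42 and 6.78 in RcN+ adjacent normal tissue. Pkm was at 8.03 and 7.86 in R0N+ neoplasia, 8.67 and 8.02 in R0N+ adjacent normal, 9.49 and 8.65 in RcN+ neoplasia and 8.17 and 9.88 in RcN+ adjacent normal tissue. Ldha was at 7.79 and 7.75 in R0N+ neoplasia, 8.42 and 7.68 in R0N+ adjacent normal, 8.44 and 8.25 in RcN+ neoplasia and 7.51 and 8.80 in RcN+ adjacent normal tissue. For Pkm and Ldha the 2 RcN+ adjacent normal arrays included the highest of all 8 values, and for Ldha the lowest too.

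Vegfa was at 6.68 and 6.24 in R0N+ neoplasia, 6.92 and 6.33 in R0N+ adjacent normal, 6.44 and 6.53 in RcN+ neoplasia and 6.44 and 6.38 in RcN+ adjacent normal tissue. In both tissues the R0N+ arrays lay on either side of the RcN+ arrays.

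**Figure D1:**
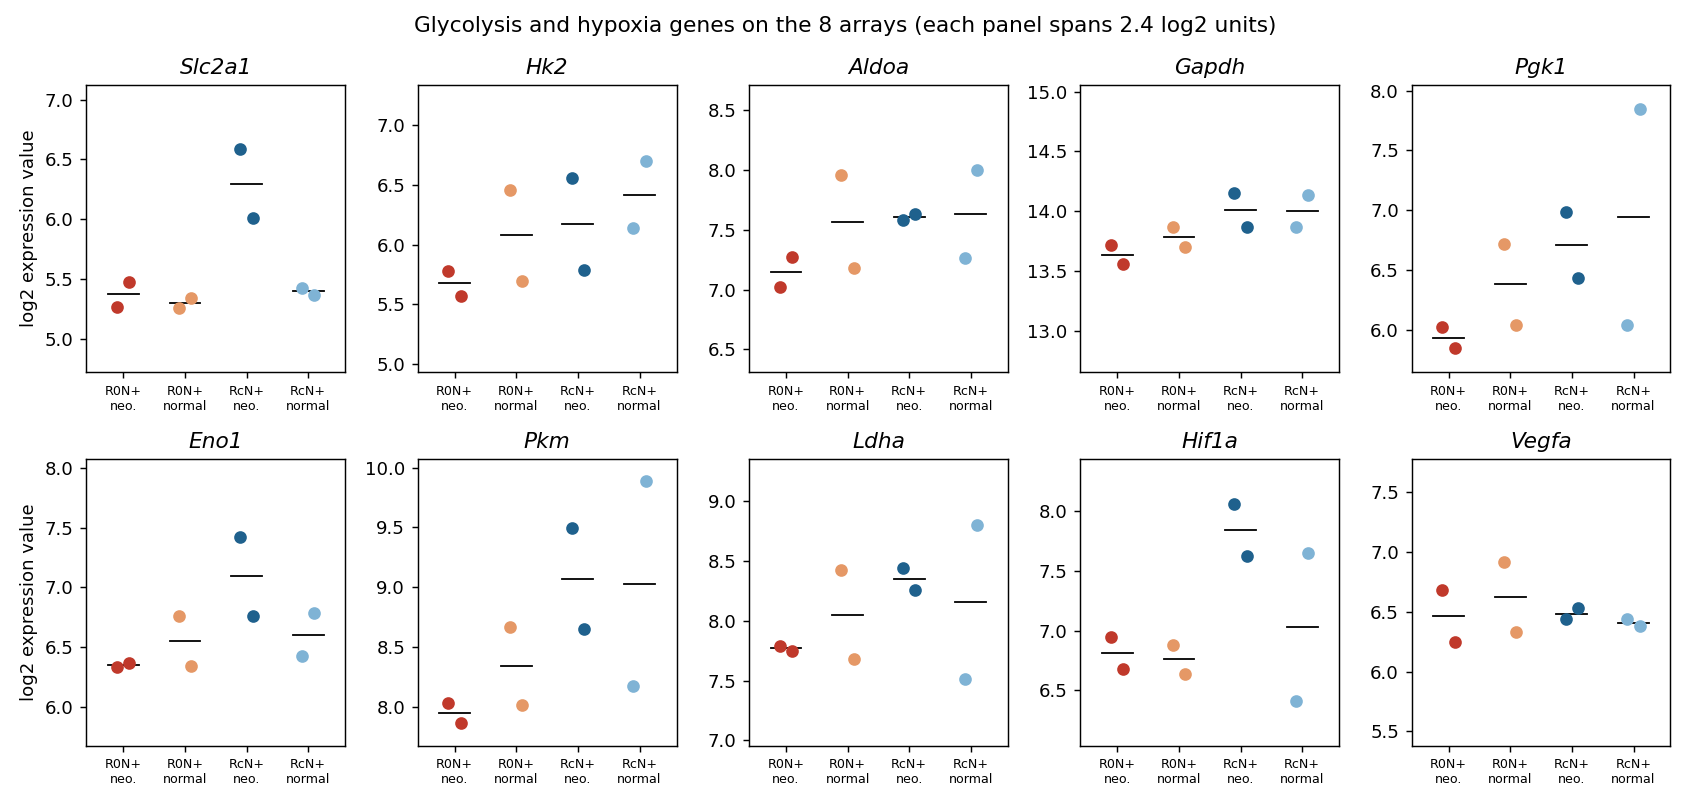
Deposited log2 values of the 10 genes by group, with a point per array, a bar at the mean of 2 arrays, and the same span of log2 units in each panel. Slc2a1 is high on both RcN+ neoplasia arrays (6.59 and 6.01) and at 5.48 or below elsewhere, while Pgk1, Pkm and Ldha differ most between the 2 RcN+ adjacent normal arrays.

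Across the 8 arrays the 7 enzymes of the set varied together. Pearson's r between them, given as a description over arrays that share animals and array quality, ran from 0.60 to 0.97 over 21 gene pairs, with a median of 0.83. Pgk1 and Pkm were closest (r = 0.97). Slc2a1 and Hif1a were each closest to Eno1 (r = 0.82 and 0.86), and Slc2a1 was less like Ldha (0.32) or Pgk1 (0.23). Vegfa was not close to any other member (highest r = 0.31, with Aldoa). Outside the set, the genes most like the mean of the 10 centred members were Il20rb (r = 0.99), Elf2 (0.99), Rps23-ps8 (0.99), Ppp1r13b (0.98) and H3f3l1 (0.98), each over 8 arrays.

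Array quality moved with this shared pattern. Control separation, the area under the curve by which 399 positive control probe sets exceed 1153 negative ones, was 0.617 and 0.600 in R0N+ neoplasia, 0.659 and 0.598 in R0N+ adjacent normal, 0.696 and 0.694 in RcN+ neoplasia and 0.577 and 0.757 in RcN+ adjacent normal tissue. The mean of the 10 centred genes was -0.29 and -0.38 in R0N+ neoplasia, 0.15 and -0.35 in R0N+ adjacent normal, 0.53 and 0.11 in RcN+ neoplasia and -0.28 and 0.51 in RcN+ adjacent normal tissue. It was above 0 on the 4 arrays of highest separation and below 0 on the other 4. Cytosolic ribosomal protein genes, a housekeeping list, were also highest on those 4 arrays, with a mean of 9.36 and 9.34 in R0N+ neoplasia, 10.05 and 9.46 in R0N+ adjacent normal, 10.56 and 10.54 in RcN+ neoplasia and 9.09 and 11.25 in RcN+ adjacent normal tissue (22 of 24 measured). The part of array quality in the pattern of the 10 genes was not tested beyond the fit with control separation as a covariate, given below.

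The lesions are labelled as epithelial neoplasia and the other arrays as normal oesophageal tissue, and markers of epithelium and of muscle were checked on both. The mean of skeletal muscle markers (17 of 18 measured) was 11.60 and 11.86 in R0N+ neoplasia, 13.33 and 11.51 in R0N+ adjacent normal, 12.43 and 12.64 in RcN+ neoplasia and 12.49 and 14.23 in RcN+ adjacent normal tissue. The adjacent normal array with the higher muscle level in each diet was also the one with the higher Hk2, Aldoa, Gapdh, Pgk1, Eno1, Pkm and Ldha. The same arrays had the higher control separation, Hif1a and ribosomal protein mean, and the higher suprabasal and basal keratinocyte means given next. Slc2a1 was lower on both, and Vegfa was lower on the RcN+ one. Suprabasal squamous markers (13 of 16 measured) averaged 13.19 and 13.93 in R0N+ neoplasia, 14.66 and 13.83 in R0N+ adjacent normal, 15.13 and 14.99 in RcN+ neoplasia and 11.90 and 14.49 in RcN+ adjacent normal tissue. Basal keratinocyte markers (9 of 10 measured) averaged 7.25 and 6.81 in R0N+ neoplasia, 7.60 and 6.90 in R0N+ adjacent normal, 8.81 and 7.84 in RcN+ neoplasia and 6.61 and 8.06 in RcN+ adjacent normal tissue. The muscle list mean was 11.51 or more on all 8 arrays, those of neoplasia included. In mixed tissue, fewer cells of a type and less RNA per cell cannot be told apart, and the part of tissue composition in these results was not tested.

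**Figure D2:**
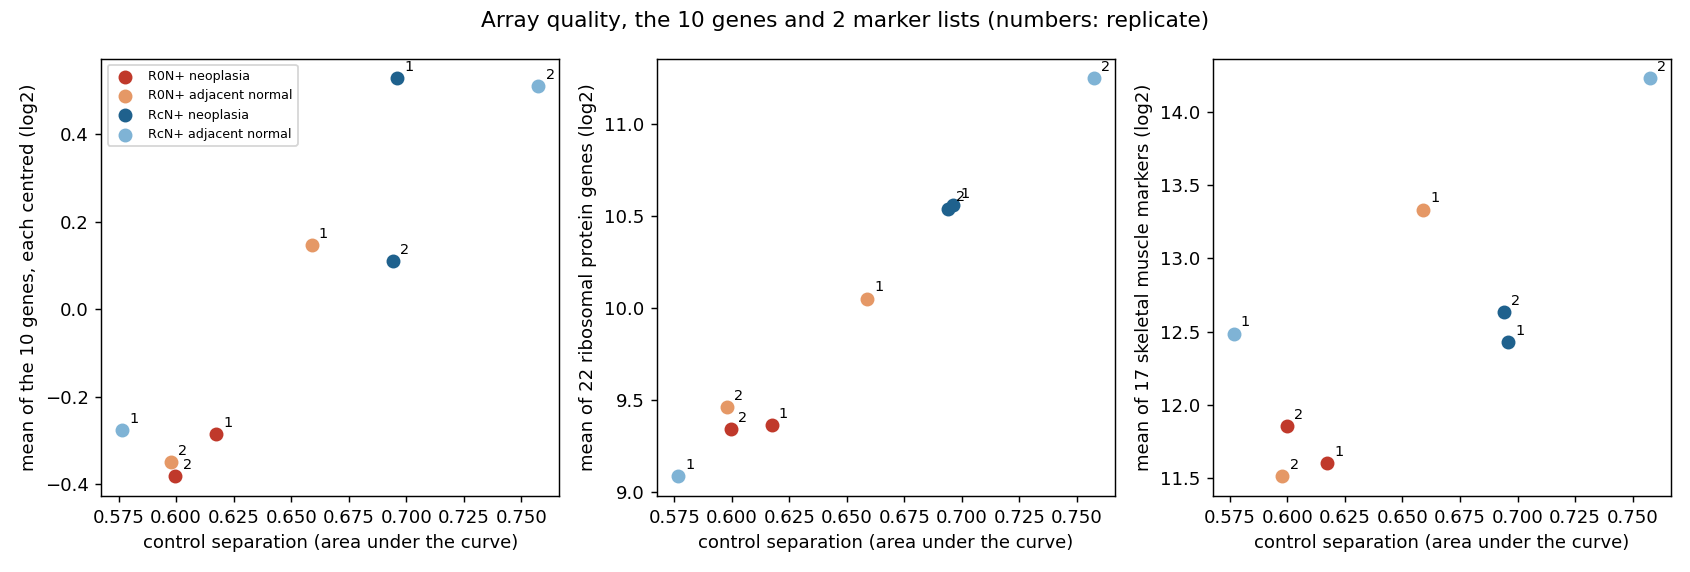
Control separation of each array (area under the curve, x axis) against the mean of the 10 centred genes, the mean of 22 ribosomal protein genes and the mean of 17 skeletal muscle markers (log2, y axes), with a point per array coloured by group and numbered by replicate. The 10 genes are above 0 on the 4 arrays with separation of 0.659 or more.

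The comparison of neoplasia with adjacent normal tissue of the same animal asked whether the genes differed with the lesion. Slc2a1 was higher in neoplasia in all 4 pairs, by 0.01 and 0.14 log2 units in the R0N+ pairs and by 1.16 and 0.64 in the RcN+ pairs. It was the single member with 1 sign in all 4 pairs, 1 of 10 where 7.89% of all genes had one (4.10% higher, 3.79% lower). Its mean difference was 0.49 (SE 0.14), with an unadjusted p of 0.0181 and an adjusted p of 1 by limma. By limma's adjusted p, 0 of 22093 genes (0%) passed, and 485 genes (2.20%) had an unadjusted p under 0.05.

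Hif1a differed by 0.06 and 0.04 in the R0N+ pairs and by 1.64 and -0.03 in the RcN+ pairs, with a mean of 0.43 (SE 0.29) that was 0.01 without RcN+ replicate 1. Eno1 had a mean of 0.14 (SE 0.21), and -0.11 without that animal. The enzymes Hk2 (-0.32, SE 0.26), Aldoa (-0.22, SE 0.23), Pgk1 (-0.34, SE 0.41), Pkm (-0.18, SE 0.44), Ldha (-0.04, SE 0.29) and Gapdh (-0.07, SE 0.14) had means below 0. Without RcN+ replicate 2 the means of Hk2, Pgk1, Pkm, Ldha and Gapdh were above 0, and without R0N+ replicate 1 those of Aldoa and Ldha were. Under quantile normalisation Ldha and Gapdh turned to 0.02 and 0.03. Vegfa was at -0.04 (SE 0.11). None of these 9 genes was near the threshold, with unadjusted p from 0.205 to 0.888 by limma.

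The pairs went in different directions. In R0N+ replicate 1, 8 of 10 genes were lower in neoplasia, with a median of -0.53, and the control separation differed by -0.042. In R0N+ replicate 2, 5 were lower and 5 higher (median -0.03, separation 0.002). In RcN+ replicate 1, 9 were higher (median 0.94, separation 0.119), and in RcN+ replicate 2, 8 were lower (median -0.32, separation -0.063). The median over all genes in these 4 pairs, in the same order, was 0.00, 0.00, -0.06 and 0.08. Of all genes 50.1%, 49.0%, 42.6% and 60.6% were higher in neoplasia. Among genes at or above the median level, to which all 10 belong, 39.7%, 48.1%, 61.9% and 49.3% were higher. The medians of those genes were -0.08, -0.01, 0.11 and -0.003. Pkm showed the contrast, at -0.64 and -0.15 in the R0N+ pairs and 1.32 and -1.24 in the RcN+ pairs. The pair medians of skeletal muscle markers were -1.54 and 0.25 in the R0N+ pairs and -0.01 and -1.83 in the RcN+ pairs. Those of ribosomal protein genes were -0.58 and -0.08 in the R0N+ pairs and 1.58 and -0.77 in the RcN+ pairs.

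**Figure D3:**
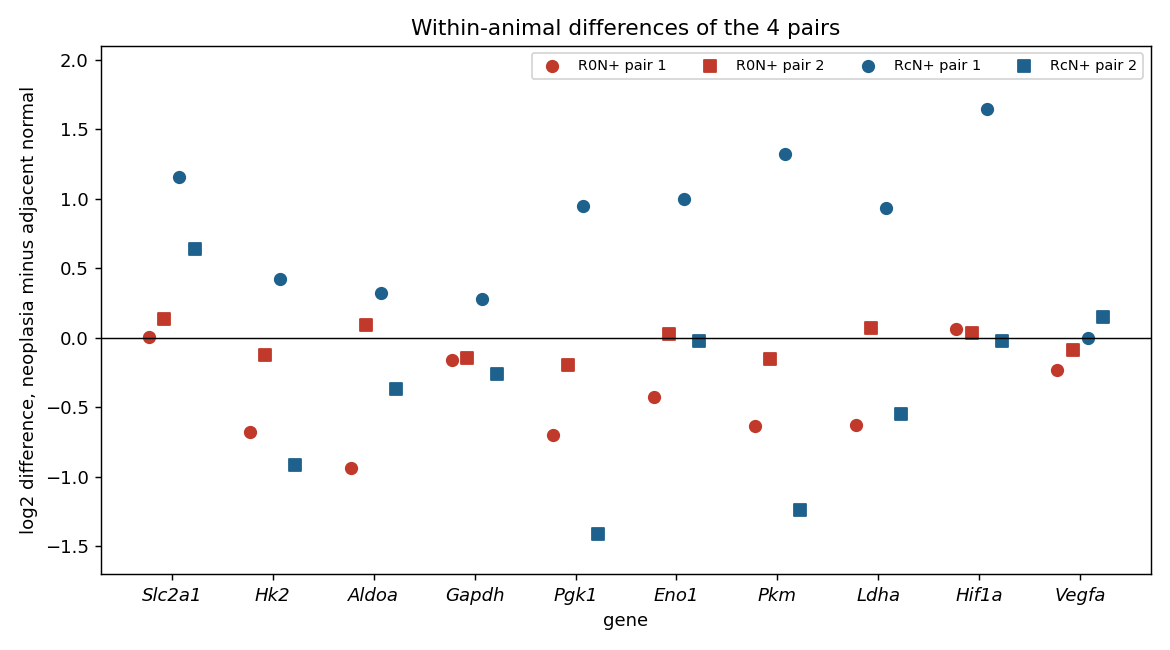
Log2 difference between neoplasia and adjacent normal tissue of the same animal for each gene, with a point per pair coloured by diet. RcN+ pair 1 lies above 0 for 9 of 10 genes and RcN+ pair 2 below 0 for 8, and Slc2a1 is above 0 in all 4 pairs.

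Within each diet the sign of the 2 pairs was compared. On the R0N+ diet it was the same for 7 of 10 genes (48.8% of all genes), and on the RcN+ diet for 1 of 10 (38.5%). On the R0N+ diet both pairs were lower for Hk2, Gapdh, Pgk1, Pkm and Vegfa, 5 of 10 where 24.6% of all genes were, and higher for Slc2a1 and Hif1a, 2 of 10 where 24.2% were. On the RcN+ diet both pairs were higher for Slc2a1 alone, 1 of 10 where 21.0% of all genes were, and both were lower for 0 of 10 (17.5%). Slc2a1 differed by 0.07 (SE 0.19) on the R0N+ diet and by 0.90 (SE 0.19) on the RcN+ diet. The RcN+ value had an unadjusted p of 0.00653 and an adjusted p of 1 by limma. Hif1a differed by 0.05 (SE 0.41) on the R0N+ diet and by 0.81 (SE 0.41) on the RcN+ diet, which was -0.03 without RcN+ replicate 1. Unadjusted p by limma was under 0.05 for 0 of 10 genes on the R0N+ diet (1.92% of all genes). On the RcN+ diet it was for 1 of 10, Slc2a1 (3.65%). By limma's adjusted p 0% of genes passed on either diet. With control separation as a covariate the unadjusted count was 0 of 10 on the R0N+ and 4 of 10 on the RcN+ diet. Of all 22093 genes 880 and 1882 were under 0.05 there, and 0 passed by adjusted p.

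The difference between those diet-specific effects was tested directly. The neoplasia effect of all 10 genes was lower on the R0N+ than on the RcN+ diet, with a median of -0.42 against 0.00 for all genes and -0.08 for genes with a mean level at or above the median gene. Both R0N+ pairs lay below both RcN+ pairs for Slc2a1 and Vegfa, 2 of 10 where 15.4% of all genes did. The count of lower genes was 8 with cyclic loess, 9 with quantile normalisation and 7 with control separation as a covariate. Without RcN+ replicate 1 it was 4 of 10. Slc2a1 showed a difference of -0.83 (SE 0.27, unadjusted p = 0.0318, adjusted p = 1 by limma), and Hif1a one of -0.76 (SE 0.58). Without RcN+ replicate 1 these were -0.57 and 0.08. An unadjusted p under 0.05 was reached by 1 of the 10, Slc2a1, and by 3.44% of all genes, and an adjusted one by 0%.

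The diets were then compared within neoplasia, R0N+ minus RcN+, where all 10 fitted differences were below 0 on the deposited scale, 8 with cyclic loess, 6 with quantile normalisation and 7 with the covariate. Slc2a1 had a log2 difference of -0.92 (SE 0.21). Hif1a (-1.03, SE 0.40) and Eno1 (-0.74, SE 0.27) had the next lowest p-values. Eno1 was -0.41 without RcN+ replicate 1. Unadjusted p-values were 0.00424, 0.0411 and 0.0315, and the adjusted p was 0.851 for each by limma, so no gene passed. Of all genes 0% passed, and 5.08% had an unadjusted p under 0.05, as these 3 of 10 did.

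Relative to the size of the difference, errors were larger for the remaining glycolytic genes than for Slc2a1, Hif1a and Eno1. Pkm was at -1.12 (SE 0.59), Pgk1 at -0.78 (SE 0.58), Ldha at -0.58 (SE 0.44), Hk2 at -0.50 (SE 0.37), Aldoa at -0.46 (SE 0.33) and Gapdh at -0.38 (SE 0.17). Vegfa was at -0.02 (SE 0.24). Without RcN+ replicate 1, Pkm was -0.70, Pgk1 -0.50, Hk2 -0.11 and Gapdh -0.23, and without RcN+ replicate 2 Hk2 was -0.88. Pkm was -0.48 with cyclic loess, -0.45 with quantile normalisation and -0.29 with control separation as a covariate. With that covariate Hk2 was -0.14, Gapdh -0.23 and Aldoa -0.04, and with cyclic loess Ldha was -0.02 and Aldoa -0.0059. The signs depended on scaling for Gapdh, which was 0.45 with cyclic loess and 0.74 with quantile normalisation, for Ldha (0.02) and Aldoa (0.0038) with quantile normalisation, and for Vegfa (0.22 with either). With control separation as a covariate, Ldha (0.08), Pgk1 (0.10) and Vegfa (0.06) were above 0.

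Both R0N+ neoplasia arrays lay below both RcN+ neoplasia arrays for 9 of 10 genes, all but Vegfa, while this held for 23.2% of all genes and for 38.7% of the genes at or above the median level, to which all 10 belong. The opposite order held for 0 of 10 and for 26.0% of all genes. The 10 genes were chosen with earlier results of these data known, which limits their comparison with all genes. The median of the 10 differences was -0.66, against 0.02 for all genes and -0.12 for those at or above the median level. After cyclic loess or quantile normalisation the count was 4 of 10 (Slc2a1, Hif1a, Eno1 and Pgk1), against 21.6% and 22.6% of all genes. Slc2a1 was -0.88, -0.85 and -0.97 with cyclic loess, quantile normalisation and the covariate. Under the same settings Hif1a was -0.65, -0.60 and -0.46, and Eno1 was -0.46, -0.46 and -0.53.

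Other lists were set beside this comparison. All 22 ribosomal protein genes were lower in R0N+ neoplasia (median -1.28), as were 16 of 17 skeletal muscle markers (-0.70), 12 of 13 suprabasal squamous markers (-1.13) 9 of 9 basal keratinocyte markers (-0.60), 9 of 10 smooth muscle markers (-0.38), 7 of 9 macrophage markers (-0.12) and 10 of 10 fibroblast and matrix markers (-0.36). In the other direction, 6 of 6 adipocyte markers (0.66), 9 of 10 neutrophil markers (0.19) and 4 of 6 red cell markers (0.03) were higher in R0N+ neoplasia. The mean of the adipocyte list was 7.04 and 5.24 in R0N+ neoplasia, against 5.09 and 5.22 in RcN+ neoplasia, so 1 array stood apart. Both R0N+ neoplasia arrays had lower control separation (0.617 and 0.600) than both RcN+ neoplasia arrays (0.696 and 0.694). Of all genes 54.1% were higher in R0N+ neoplasia, and of those at or above the median level 34.2% were. None of the genes in these lists passed by limma's adjusted p.

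**Figure D4:**
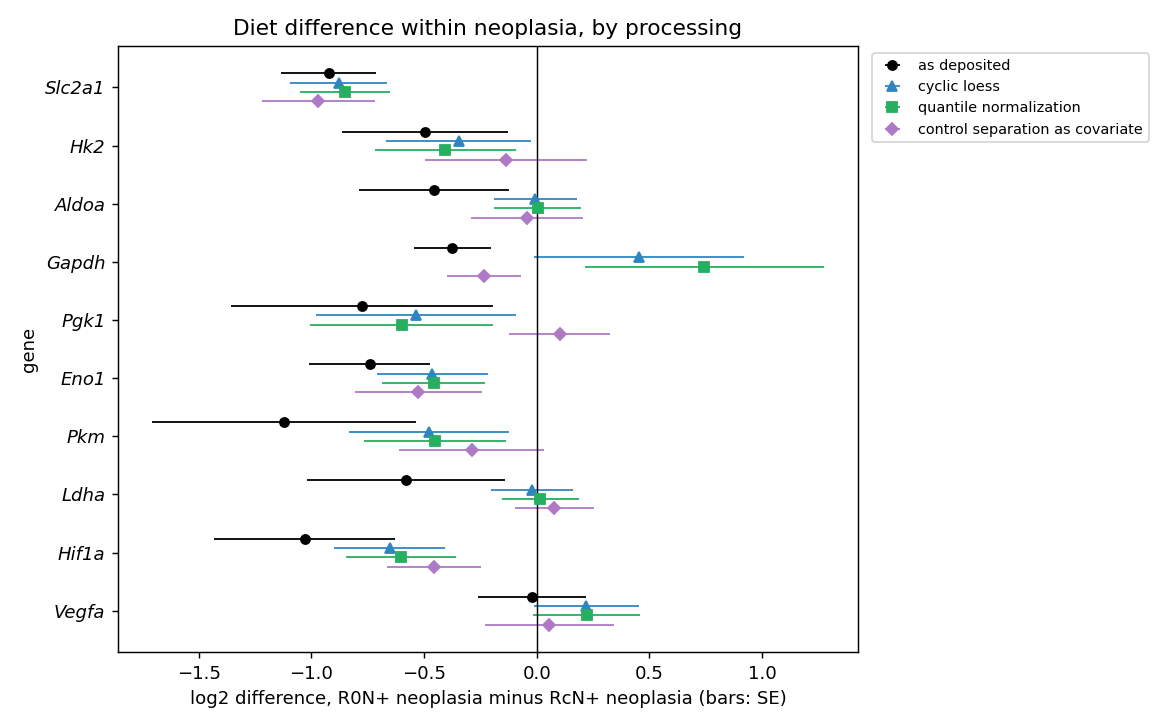
Log2 difference R0N+ minus RcN+ within neoplasia for each gene (point) with its SE (bar), for the values as deposited and under cyclic loess, quantile normalisation and control separation as a covariate. Slc2a1, Hif1a and Eno1 stay below 0 in all 4, Hk2 and Pkm do too, and Gapdh lies above 0 under both renormalisations.

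In adjacent normal tissue the diets overlapped. Slc2a1 differed by -0.10 (SE 0.21) and Hif1a by -0.27 (SE 0.40), R0N+ minus RcN+, and the unadjusted p was over 0.05 for all 10 genes by limma, as for all but 2.37% of genes. Both R0N+ arrays lay below both RcN+ arrays for Slc2a1 alone, 1 of 10 where 8.78% of all genes and 10.3% of those at or above the median level did, and for no member in the other direction (11.8%). The RcN+ group held the arrays of lowest and highest control separation, 0.577 and 0.757. Without RcN+ replicate 1 the count of genes with R0N+ below RcN+ was 9, and without R0N+ replicate 1 it was 7. Over all genes these shares were 31.0% and 23.5%, and 48.6% and 31.6% of those at or above the median level, so they were higher for genes in general too.

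Other genes of sugar breakdown did not share a direction. Of 22 further glycolysis genes measured, 11 were higher and 11 lower in neoplasia over the 4 pairs (median 0.00, all genes 0.00), and 13 were lower in R0N+ than in RcN+ neoplasia (median -0.06, all genes 0.02). None passed by limma's adjusted p. Triose phosphate isomerase (Tpi1) was at 7.62 and 8.27 in R0N+ neoplasia, 9.63 and 8.24 in R0N+ adjacent normal, 9.43 and 9.74 in RcN+ neoplasia and 9.59 and 11.18 in RcN+ adjacent normal tissue. It was lower in R0N+ than in RcN+ neoplasia by a log2 difference of -1.64 (SE 0.64). The muscle-type phosphofructokinase gene Pfkm was -1.03 (SE 0.47) in neoplasia against adjacent normal, with pair values of -1.69 and -0.24 on the R0N+ and 0.11 and -2.29 on the RcN+ diet. The heart-type lactate dehydrogenase gene Ldhb, named for having 1 sign in all pairs, was lower by small amounts (mean -0.17, SE 0.12). It was 1 of 22 genes lower in every pair, where 3.79% of all genes were.

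All 10 genes of sugar and energy metabolism typical of striated muscle were lower in neoplasia in the mean of the pairs (median -0.54), and 0 passed by limma's adjusted p. The muscle enolase gene Eno3 was -1.01 (SE 0.47) and the creatine kinase gene Ckm -0.91 (SE 0.73). Lower in every pair were 3 of the 10, where 3.79% of all genes were, and these were named for that shared sign. They were Phka1, a phosphorylase kinase subunit (-0.52, SE 0.20), Fbp2, the muscle fructose bisphosphatase (-0.29, SE 0.16), and Slc2a4, the insulin-regulated glucose transporter (-0.23, SE 0.14). Some pair differences were near 0, at -0.0076 for Fbp2 in RcN+ pair 2 and -0.0066 for Slc2a4 in R0N+ pair 2. The pair medians of this list were -1.07 and 0.02 on the R0N+ and 0.24 and -1.29 on the RcN+ diet.

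Genes of other hypoxia-inducible factor subunits and of its regulators, taken as 1 list, numbered 12. Of these, 3 were higher and 9 lower in neoplasia (median -0.07), where 50.55% of all genes were higher. Between diets, 10 were lower in R0N+ than in RcN+ neoplasia (median -0.19). Epas1, which encodes a second oxygen-regulated subunit, was at 6.64 and 6.43 in R0N+ neoplasia, 7.41 and 6.48 in R0N+ adjacent normal, 6.98 and 7.11 in RcN+ neoplasia and 6.12 and 7.26 in RcN+ adjacent normal tissue. The oxygen-sensing hydroxylase gene Egln2 differed by -1.03 (SE 0.51) between diets within neoplasia. Of 23 other genes known to respond to low oxygen, 14 were higher in neoplasia (median 0.03) and 16 were lower in R0N+ than in RcN+ neoplasia (median -0.16). In that diet comparison 54.1% of all genes were higher (median 0.02). Of genes at or above the median level 34.2% were (median -0.12), so most of those were lower too. Bnip3l, a mitophagy receptor, differed between neoplasia and adjacent normal by -1.21 and -0.11 in the R0N+ pairs and by 1.97 and 0.56 in the RcN+ pairs. Its relative Bnip3 differed by 0.09 and -0.43 in the R0N+ pairs and by 0.26 and -1.10 in the RcN+ pairs. None of the genes in either list passed by limma's adjusted p.

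Vegfa's relatives and receptors had small differences. Of 9 measured, 8 were lower in neoplasia (median -0.07) and 6 were higher in R0N+ than in RcN+ neoplasia (median 0.07), and 0 passed by limma's adjusted p. Vegfd, a lymphangiogenic factor named for having 1 sign in all pairs, was lower (mean -0.16, SE 0.11). It was 1 of 9 genes lower in every pair, where 3.79% of all genes were. Vegfb differed by -0.03 (SE 0.12) and the co-receptor gene Nrp1 by -0.15 (SE 0.14). Endothelial markers (8 of 9 measured) had pair medians of 0.09 and -0.11 on the R0N+ and 0.04 and -0.02 on the RcN+ diet.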

How the data were processed

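Per the submitters' processing notes, the authors made log2 probe set values with Affymetrix Expression Console and RMA; the notes give names only. Versions and genome build are not given in the sources used here. The deposited table held 70580 probe sets, from 2.43 to a ceiling of 19.93. Of these, 23446 had 1 gene symbol in the platform annotation, 505 several, and 46629 were unnamed here or controls. Symbols were updated by Entrez ID (22077 matched), and the probe set of highest mean was kept for each of 22093 genes. No member reached the ceiling. One array, RcN+ adjacent normal replicate 2, had 468 probe sets at it, against 1479 to 1748 elsewhere.

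limma 3.58.1 (R 4.3.3, lmFit and eBayes) was fitted over all genes. The code was also run on simulated pairs to check its estimates, which does not show how well it detects differences on these arrays. Tissue effects used animal as a block (2 residual degrees of freedom), since the descriptions give both tissues of a pair 1 animal code. Replicate deviations correlated between tissues at 0.16 (R0N+) and 0.19 (RcN+). Diet effects used group means (4 residual degrees of freedom). Benjamini-Hochberg adjusted p under 0.05 was the threshold. Exact permutation over 4 pairs cannot go below 0.125, nor 2 arrays against 2 below 0.333, so genes were tested through limma alone.

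Members and lists were chosen with earlier results of these data known. Named genes of other lists were, per list, up to 3 of lowest p with 1 sign in all pairs and the 2 of highest mean. Likeness was Pearson's r with the mean of the centred members, among non-members with a mean at or above the gene median. Alternatives were no block, a random animal block for diet, quantile normalisation, cyclic loess, genes at or above the median level only, averaged probe sets, eBayes trend and each animal left out. Control separation as a covariate was chosen after the data were seen. No detection calls were used, and the number of arrays limits precision.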

Additional observations from a re-analysis of the deposited data

How the results depend on the processing

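No gene passed in any of the 6 comparisons under any alternative, the fits without the replicate block (0 genes) and with a random replicate block for diet (0 genes) included. The lowest adjusted p of a member value printed in the report was 0.261. Of 28 such values 13 kept their sign under every alternative run, including all 6 of Slc2a1. Several alternatives could not turn a sign. The block settings, eBayes trend, averaged probe sets and the limit to genes at or above the median level change only the errors of these values. Leaving out an animal of 1 diet also leaves the neoplasia effect of the other diet as it was. Scaling moved the counts within neoplasia: members with both R0N+ arrays below both RcN+ arrays were 4 under quantile normalisation and 4 under cyclic loess, and members lower in the diet effect were 6 under quantile normalisation. The diet effect in neoplasia turned to 0.0163 (Ldha), 0.0038 (Aldoa), 0.744 (Gapdh) and 0.223 (Vegfa) under quantile normalisation, to 0.453 (Gapdh) and 0.220 (Vegfa) under cyclic loess, and to 0.0786 (Ldha), 0.101 (Pgk1) and 0.0561 (Vegfa) with control separation as a covariate. The mean neoplasia effect turned to 0.0187 (Ldha) and 0.0286 (Gapdh) under quantile normalisation. The cause of these turns was not tested. With each animal left out, members with a lower neoplasia effect on the R0N+ diet ranged from 4 to 10. The mean neoplasia effect ranged from -0.11 to 0.40 for Eno1, -0.41 to 0.33 for Ldha, -0.93 to 0.25 for Pgk1, -0.82 to 0.46 for Pkm, -0.66 to 0.0113 for Hk2 and -0.21 to 0.0658 for Gapdh, the lower end without RcN+ replicate 1 and the upper without RcN+ replicate 2. For Aldoa it ranged from -0.48 without R0N+ replicate 2 to 0.0355 without R0N+ replicate 1. Hif1a ranged from -1.59 to 0.0761 for the diet difference of the neoplasia effect, -0.89 to 0.35 for diet in adjacent normal tissue and -0.0253 to 1.64 for the RcN+ neoplasia effect. Vegfa ranged from -0.24 to 0.20 for diet in neoplasia. With an animal left out, a lone array was assumed to vary like the other groups. All members but Gapdh, 9 of the 10, exceeded the 95th percentile of negative control probe sets on 0 of 8 arrays. That percentile was high, and the share of all genes above it was not counted. The count therefore does not set these 9 apart from genes in general. How far background limits them was not tested.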

Other observations

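A further probe set, annotated to both Pkm and RGD1561179 and so left out of the tests, was at 10.14 and 9.97 in R0N+ neoplasia, 11.34 and 10.06 in R0N+ adjacent normal, 12.06 and 11.25 in RcN+ neoplasia and 10.30 and 11.77 in RcN+ adjacent normal tissue. The platform also names pseudogenes or like-named genes of 6 members, 11 for Gapdh, 7 for Ldha, 6 for Eno1, 5 for Pgk1, 4 for Pkm and 2 for Aldoa, and none was found for Slc2a1, Hk2, Hif1a or Vegfa. How far the probe sets of those 6 genes also measure such copies was not tested. The deposited Gapdh value was the same to 4 decimals, 13.8705, on R0N+ adjacent normal replicate 1, RcN+ neoplasia replicate 2 and RcN+ adjacent normal replicate 1.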
